A study of Mus musculus with 18 samples.

Results

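The methionine and homocysteine cycle was described in mouse liver through 10 genes chosen by name: Mat1a, Mat2a, Ahcy, Gnmt, Bhmt, Cbs, Cth, Pemt, Nnmt and Mtr. They are 10 of the 19597 named genes with a probe kept for testing, and 18 of the 35738 kept probes belong to them. Every one of the 18 probes was well above background on 18 of 18 arrays. The samples were livers of male C57BL/6 mice, a common inbred strain, with 1 one-colour Agilent array for each mouse. Mice were placed at 6 weeks of age on a low fat diet with 10% of energy from fat (LFD, 4 mice) or a high fat diet with 60% (HFD, 4 mice), and neither group received drug. The other mice were on the same diets for 10 weeks and then received methotrexate at 50 mg/kg into the peritoneum for 5 rounds, and their livers were taken 1 week after the last round (LFD MTX50, 5 mice, and HFD MTX50, 5 mice). The labels name no tumour and no engineered allele.

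In this cycle methionine is joined to ATP to make S-adenosylmethionine (SAM), the methyl donor of most methylation reactions, and each transfer leaves S-adenosylhomocysteine (SAH), which is split to homocysteine and adenosine. Homocysteine is either methylated back to methionine, with a methyl group from betaine or from the folate cycle, or passed through cystathionine to cysteine. The liver carries out much of the methionine metabolism of the body. Methotrexate is an antifolate that inhibits dihydrofolate reductase and so acts on the folate cycle, which supplies one of these methyl groups.

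Levels are given on the log2 scale relative to the 75th percentile of each array. A difference of 1 is a 2-fold difference in signal. The level of 1 gene is not set against that of another, apart from Mat2a minus Mat1a in each mouse, set to 0 at the LFD mean. A gene was called at an adjusted p below 0.05 in limma, a linear model fitted to all probes together, with adjustment over all kept probes. Where several probes read a gene, the brightest is used unless another is named. All groups without overlap give an exact permutation p of 0.0286 for 4 mice against 4 and 0.0159 for 4 against 5, which are the smallest these designs allow in the 2-sided test used.

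The hybridisation slides limit some of the comparisons. The arrays were on 6 slides: slide 1 held the LFD mice, slides 2 and 3 the LFD MTX50 mice, slide 4 HFD mice 1 and 2, slide 5 HFD mice 3 and 4 with HFD MTX50 mice 1 and 2, and slide 6 the other HFD MTX50 mice. A difference from the LFD mice therefore cannot be told apart from a difference between slides, whereas HFD MTX50 and HFD could also be compared within slide 5. The treatment effect on HFD minus that on LFD contains the difference of LFD MTX50 from LFD, so it carries this limit too. All 6 hepatocyte markers were above background on every array. Summed over each marker list and relative to the 75th percentile, erythroid markers lay between 16.6 and 23.8 in LFD, 1.03 and 1.58 in LFD MTX50, 11.0 and 24.0 in HFD, and 1.37 and 58.8 in HFD MTX50. The neutrophil markers (4 of 5 genes on the array by name; Ngp above background on 7 arrays) ranged up to 0.92 in LFD, 6.23 in LFD MTX50 and 1.42 in HFD, but were at 4.52, 11.6 and 53.1 in HFD MTX50 mice 3, 4 and 5. Erythroid sums of 23.5 and 58.8 set HFD MTX50 mice 4 and 5 apart from the other 3, whose sums were 1.37 to 2.52. In whole liver, fewer cells of a type and less RNA per cell cannot be told apart.

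The promoter windows of 3 genes whose treatment effect differed between the diets are printed for the sequence that precedes each start. They are the 250 bases before the RefSeq start in the mouse build GRCm38.p6, all on the minus strand: chr6:72439557-72439806 for Mat2a, chr2:155074498-155074747 for Ahcy and chr17:46729166-46729415 for Gnmt. Capitals mark matches on either strand to the TATA box motif TATAAA, the GC box motif GGGCGG, the CCAAT box motif CCAAT, the E-box motif CACGTG or the motif TGACG from cyclic AMP response elements. In these windows the only matches that overlap are 2 GC boxes of Mat2a.
Mat2a: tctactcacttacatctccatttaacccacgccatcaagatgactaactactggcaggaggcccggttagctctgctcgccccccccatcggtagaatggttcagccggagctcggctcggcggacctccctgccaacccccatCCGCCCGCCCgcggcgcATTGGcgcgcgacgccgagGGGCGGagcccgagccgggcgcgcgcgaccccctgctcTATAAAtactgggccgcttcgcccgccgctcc
Ahcy: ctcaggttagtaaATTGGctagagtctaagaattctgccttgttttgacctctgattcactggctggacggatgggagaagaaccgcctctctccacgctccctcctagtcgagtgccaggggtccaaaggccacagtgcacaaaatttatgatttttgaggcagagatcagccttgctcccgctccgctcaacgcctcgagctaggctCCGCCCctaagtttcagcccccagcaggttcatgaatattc
Gnmt: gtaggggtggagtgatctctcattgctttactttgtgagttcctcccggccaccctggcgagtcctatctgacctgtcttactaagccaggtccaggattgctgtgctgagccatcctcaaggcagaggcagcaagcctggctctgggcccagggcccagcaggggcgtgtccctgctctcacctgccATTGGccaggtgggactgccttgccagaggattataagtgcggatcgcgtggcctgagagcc
RefSeq windows were given for 7 of the 10 genes, and Pemt has 2, which makes 8 windows; Mat1a, Cth and Nnmt had none. The Mat2a window holds 1 TATAAA, 3 matches to the GC box GGGCGG, of which 2 overlap, and 1 CCAAT, and 67.6% of its bases are G or C. The Ahcy window has 1 GC box and 1 CCAAT, and the Gnmt window has 1 CCAAT. The CCAAT motif was found in 7 of the 8 windows, compared with 33.8% of 32851 windows of the same length, and GGGCGG in 4 of the 8, compared with 32.7%. TATAAA occurs in 12.4% of all windows and in the Mat2a window alone among the 8. These are matches of letters only.

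Methotrexate in HFD mice changed 1 of the 10 genes, Mat2a, which was higher, where 11% of all genes were called. Mat2a encodes the catalytic subunit of the SAM synthetase found in most tissues outside the mature liver. The Mat2a level was 1.75, 1.75, 1.50 and 1.33 in the 4 HFD mice and 2.74, 2.61, 2.19, 2.03 and 2.22 in the 5 HFD MTX50 mice. Every treated mouse was above every untreated HFD mouse, and 11.4% of all genes had no overlap in one direction or the other. The difference was 0.77 ± 0.14 (SE), or 1.71-fold (adjusted p = 0.00876 by limma; exact permutation p = 0.0159). The dimmer Mat2a probe was also called, at 0.64 ± 0.16 (adjusted p = 0.0218 by limma).

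On slide 5 alone, with 2 mice in each group, the Mat2a difference was 1.26 (adjusted p = 0.00088 by limma with slide and group fitted together). The call held without each single array, with a difference of 0.68 to 0.86. Without HFD MTX50 mice 4 and 5, which had the high erythroid sums, the difference was 0.93 (adjusted p = 0.00436 by limma). It lost its call when the 2 groups were fitted alone (adjusted p = 0.0717), with the methods' t-test after adjustment (adjusted p = 0.101) and with a normexp background correction (0.61, adjusted p = 0.381), and under each of these 3 settings 0 of the 35738 probes were called in this comparison. Adipocyte markers summed to 4.06 to 6.55 in HFD and 0.45 to 1.45 in HFD MTX50, and their part in the Mat2a difference was not tested.

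The Mat2a group means ran from 1.58 ± 0.20 (SD, n = 4) in HFD through 1.93 ± 0.07 (n = 4) in LFD and 2.07 ± 0.19 (n = 5) in LFD MTX50 to 2.36 ± 0.30 (n = 5) in HFD MTX50. HFD and LFD did not overlap, whereas LFD overlapped LFD MTX50, and LFD MTX50 overlapped HFD MTX50. Within HFD, mice 1 and 2 of slide 4 were above mice 3 and 4 of slide 5.

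Gnmt encodes glycine N-methyltransferase, an abundant liver enzyme that uses up SAM by methylating glycine. Its level was 5.32, 5.10, 4.75 and 4.94 in HFD and 4.60, 4.38, 4.45, 4.45 and 5.03 in HFD MTX50. Treated mice were lower apart from mouse 5, which lay within the HFD range. The difference of -0.45 ± 0.15 missed the threshold (adjusted p = 0.0553 by limma; exact permutation p = 0.0476). It passed without HFD MTX50 mouse 5 (-0.56, adjusted p = 0.0251), without LFD MTX50 mouse 1, which enters through the shared spread alone (-0.45, adjusted p = 0.0466), and without HFD MTX50 mice 4 and 5 together (-0.55, adjusted p = 0.0383). With quantile normalisation it was -0.70 (adjusted p = 0.00611). The difference was called under 5 of 16 other settings and in 2 of 18 fits without 1 array. Within slide 5 it was -0.36 and not called (adjusted p = 0.29 by limma with slide and group fitted together).

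**Figure D1:**
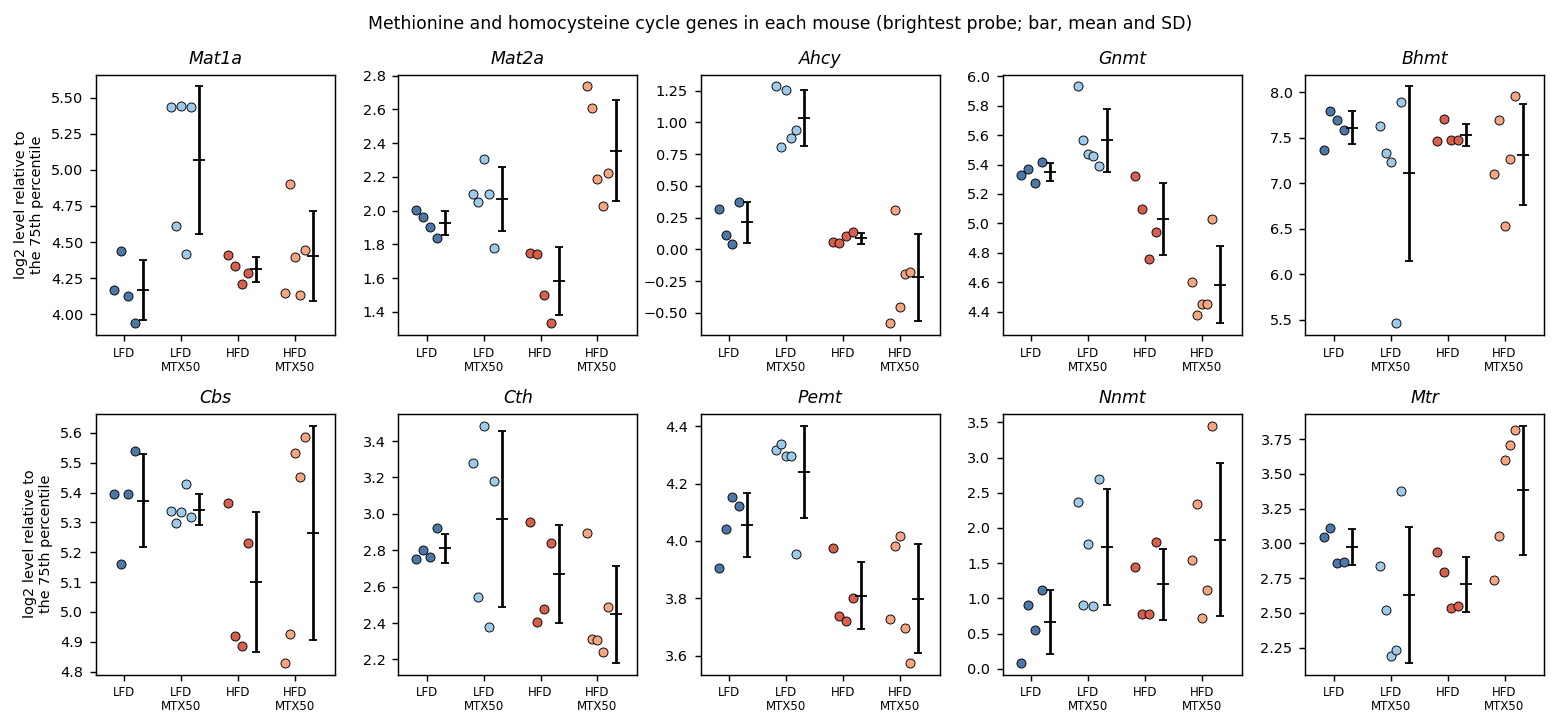
Level of each gene on its brightest probe (y axis, log2 relative to the 75th percentile of the array; scales differ between panels) in the 4 groups of mice, each diet without and with MTX50 (x axis). Points are mice in replicate order and bars are mean and SD; Mat2a in HFD MTX50 lies above HFD, and Ahcy in LFD MTX50 lies above LFD, with no overlap.

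Methotrexate in LFD mice changed 2 of the 10 genes, Mat1a and Ahcy, both higher, where 28.1% of all genes were called. Ahcy encodes SAH hydrolase, which removes the inhibitory product of methylation. The Ahcy level was 0.32, 0.11, 0.04 and 0.37 in the LFD mice and 1.28, 0.80, 1.25, 0.87 and 0.94 in the LFD MTX50 mice. All treated mice were above all untreated mice, as was so for 29.1% of all genes in one direction or the other. The difference was 0.82 ± 0.15, or 1.77-fold (adjusted p = 0.00288 by limma; exact permutation p = 0.0159), and the dimmer Ahcy probe gave 0.69 ± 0.18 (adjusted p = 0.0108 by limma).

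Mat1a encodes the SAM synthetase subunit of adult hepatocytes. Its level was 4.17, 4.44, 4.12 and 3.94 in LFD and 5.44, 4.61, 5.44, 4.42 and 5.43 in LFD MTX50. The treated mice fell into 3 with high and nearly equal levels and 2, mice 2 and 4, close to the untreated range, and mouse 4 was below LFD mouse 2. The difference was 0.90 ± 0.21, or 1.87-fold (adjusted p = 0.00828 by limma; exact permutation p = 0.0317).

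Mice 2 and 4 of LFD MTX50 were also the lowest of their group for Cth and Nnmt, as given beside those genes. Their neutrophil sums were 5.88 and 6.23, against 0.52 to 2.12 in the other 3 mice of the group, and the part of this in the split was not tested. Both calls were kept without any single array, with a Mat1a difference of 0.81 to 1.06 and an Ahcy difference of 0.76 to 0.88. With slide as a random block neither was called (Mat1a 0.95, adjusted p = 0.0932; Ahcy 0.81, adjusted p = 0.0644), nor with normexp (Mat1a 0.56, adjusted p = 0.247; Ahcy 0.64, adjusted p = 0.0651). The erythroid sum was lower in every LFD MTX50 mouse than in every LFD mouse, as was the sum of the 6 Kupffer cell and macrophage markers (34.0 to 42.4 against 45.8 to 63.7, with 2 called lower). Of the 4 adipocyte markers 3 were called higher (sums of 0.35 to 0.67 against 0.26 to 0.41). The part of these markers in the Mat1a and Ahcy differences was not tested.

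The other 8 genes did not pass the test in LFD mice. Gnmt was 5.33, 5.37, 5.27 and 5.42 in LFD and 5.93, 5.57, 5.47, 5.46 and 5.39 in LFD MTX50, a difference of 0.22 ± 0.15 (adjusted p = 0.261 by limma). Mat2a differed by 0.14 ± 0.14 (adjusted p = 0.473 by limma), with levels of 2.00, 1.96, 1.90 and 1.84 in LFD and 2.10, 2.05, 2.31, 2.10 and 1.78 in LFD MTX50. The groups overlapped for both genes.

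The diet alone called 0 of the 10 genes by limma, where 28.3% of all genes were called. At an unadjusted p below 0.05, limma gave 1 gene, Mat2a, and the methods' t-test gave 3, Mat2a, Gnmt and Pemt, all lower in HFD. Mat2a was lower in every HFD mouse than in every LFD mouse, with a difference of -0.34 ± 0.15 (adjusted p = 0.0964 by limma; exact permutation p = 0.0286), and 40.3% of all genes had no overlap in one direction or the other. With the arrays scaled to the median of probes above background the Mat2a difference was -0.44 (adjusted p = 0.0403), and with LFD and HFD fitted alone it was -0.34 (adjusted p = 0.0381). Adipocyte marker sums were 0.26 to 0.41 in LFD and 4.06 to 6.55 in HFD, with 3 of the 4 markers called higher in HFD, and their part in the differences by diet was not tested.

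Pemt encodes the methyltransferase that makes phosphatidylcholine from phosphatidylethanolamine, a large consumer of SAM in liver. On its brightest probe the level was 3.90, 4.04, 4.15 and 4.12 in LFD and 3.98, 3.74, 3.72 and 3.80 in HFD, a difference of -0.25 ± 0.12 (adjusted p = 0.119 by limma). Only HFD mouse 1 lay within the LFD range. The second probe was called at -0.41 ± 0.12 (adjusted p = 0.0177 by limma), with 3.72, 3.83, 3.90 and 3.84 in LFD and 3.66, 3.40, 3.21 and 3.35 in HFD and no overlap. Another gave -0.23 ± 0.10 (adjusted p = 0.103 by limma), also with no overlap. With all probes of a gene averaged, Pemt was called at -0.30 (adjusted p = 0.0428). Under methotrexate Pemt did not pass on any of its 3 probes on either diet.

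**Figure D2:**
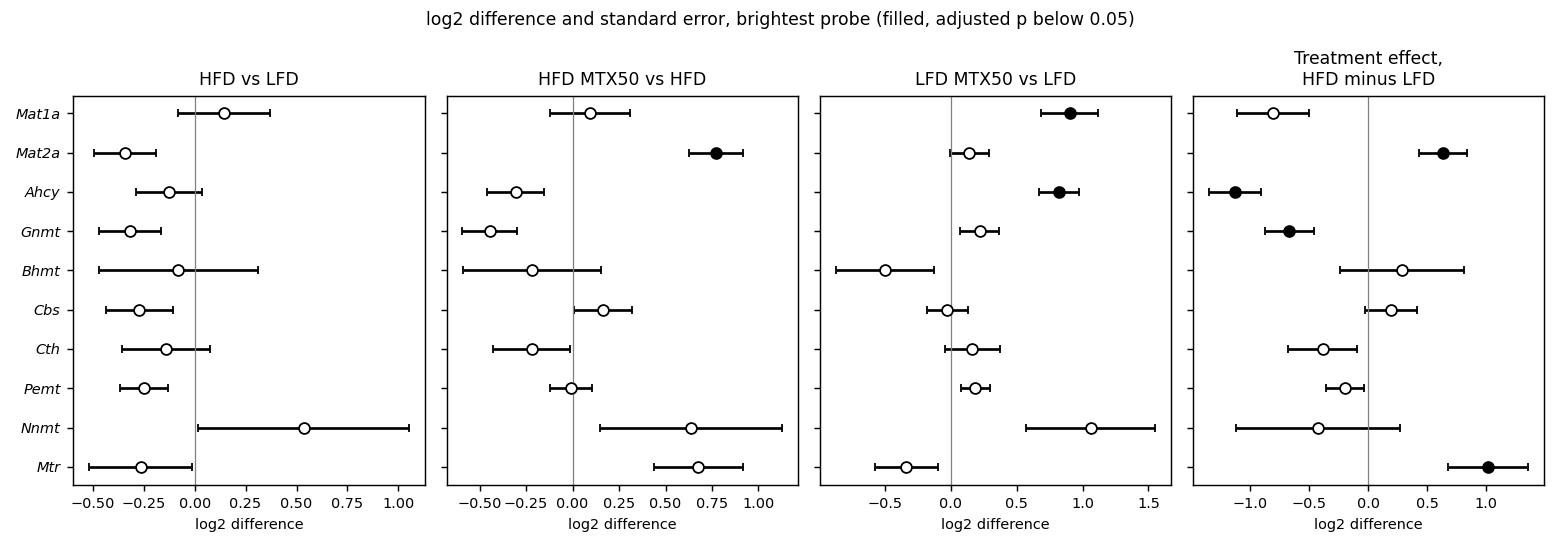
Difference in log2 level (x axis) for each gene on its brightest probe (y axis). Panels show the diet, methotrexate on HFD and then on LFD, and the treatment effect on HFD minus that on LFD. Circles are estimates, bars are standard errors and filled circles have an adjusted p below 0.05: none, then Mat2a, then Mat1a and Ahcy, then Mat2a, Ahcy, Gnmt and Mtr.

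On the brightest probes the treatment effect differed between the diets for 4 of the 10 genes, where 26.8% of all genes were called. Ahcy and Gnmt had the lower effect on HFD, and Mat2a and the brighter Mtr probe the higher. The dimmer Mtr probe lay on the other side, at -0.46 ± 0.18, and was not called (adjusted p = 0.0709 by limma). For Ahcy, HFD levels were 0.06, 0.05, 0.10 and 0.14, and HFD MTX50 levels were -0.58, 0.31, -0.45, -0.19 and -0.18. The treated HFD mice were below the untreated ones except mouse 2, and the difference within HFD, -0.31 ± 0.15, was not called (adjusted p = 0.183 by limma). Without mouse 2 it was -0.44 and called (adjusted p = 0.0384 by limma).

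Set against the rise in LFD, the Ahcy effect on HFD differed by -1.13 ± 0.22 (adjusted p = 0.00559 by limma; exact permutation p = 0.000882 with treatment labels exchanged within each diet). That exchange assumes no treatment effect on either diet. Here and for the genes below it is therefore not a test of equal effects on both diets. The dimmer Ahcy probe gave -0.90 ± 0.25 (adjusted p = 0.0163 by limma). The call was kept without any single array, with slide as a random block and without HFD MTX50 mice 4 and 5 (-1.15, adjusted p = 0.0188), and was lost with normexp (-0.76, adjusted p = 0.549). LFD and LFD MTX50 share no slide, so the random block cannot separate slide from treatment there.

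For Gnmt the effects of 0.22 on LFD and -0.45 on HFD, neither called by itself, differed by -0.66 ± 0.21 (adjusted p = 0.0267 by limma; exact permutation p = 0.00655). This was kept without any single array (-0.78 to -0.57) but not with scaling to the median (-0.52, adjusted p = 0.0881) or slide as a random block (-0.63, adjusted p = 0.116). Gnmt has 1 probe, so no other probe could be set beside it.

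For Mat2a the effect was larger on HFD by 0.63 ± 0.20 (adjusted p = 0.0319 by limma; exact permutation p = 0.0578). The dimmer probe gave 0.38 ± 0.23 and was not called (adjusted p = 0.208 by limma). The call was lost without LFD mouse 1 (0.61, adjusted p = 0.0549), LFD mouse 2 (0.62, adjusted p = 0.0574), HFD mouse 3 (0.61, adjusted p = 0.0676) or HFD mouse 4 (0.55, adjusted p = 0.0767), with quantile normalisation (0.47, adjusted p = 0.142), with slide as a random block (0.81, adjusted p = 0.0503), with normexp and with the mean of probes (0.51, adjusted p = 0.0725). Mat1a went the other way, with a difference of effects of -0.81 ± 0.30 that was not called (adjusted p = 0.0562 by limma; exact permutation p = 0.0713) but was with quantile normalisation (-1.08, adjusted p = 0.0169). Leaving out LFD MTX50 mouse 2 gave -0.92, mouse 4 of that group -0.97 and mouse 2 of HFD MTX50 -0.93, each of them called. The 2 effects share no mice, but each is measured against the untreated mice of its own diet. Both untreated groups also enter HFD vs LFD.

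**Figure D3:**
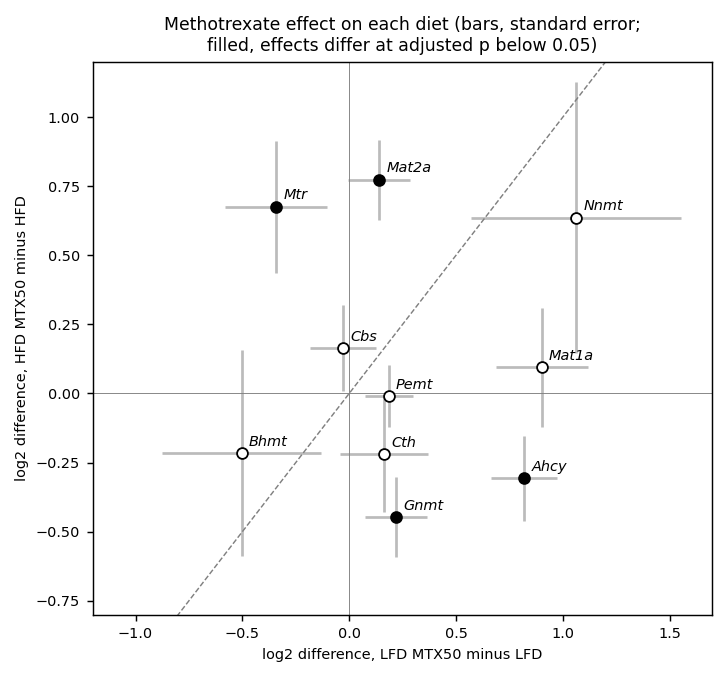
Methotrexate effect in LFD mice (x axis, log2 difference) against that in HFD mice (y axis, log2 difference). Points are the 10 genes on their brightest probe, with standard errors as bars and equal effects on the dashed line. Filled points, whose effects differ at an adjusted p below 0.05, are Mat2a and Mtr above the line and Ahcy and Gnmt under it.

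The log2 levels of Mat1a and Mat2a, the pair of SAM synthetase genes, were also set against each other in each mouse. Their difference, Mat2a minus Mat1a, set to 0 at the LFD mean, was -0.76 ± 0.55 (SD, n = 5) in LFD MTX50, -0.49 ± 0.16 (n = 4) in HFD and 0.19 ± 0.36 (n = 5) in HFD MTX50. Mat2a was lower relative to Mat1a in every HFD mouse (-0.71 to -0.35) than in every HFD MTX50 mouse (-0.06 to 0.83). These values describe the same arrays as the tests above and were not tested again.

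Homocysteine is methylated by Bhmt, betaine-homocysteine methyltransferase, and by Mtr, the folate and vitamin B12 dependent methionine synthase. The Bhmt level was 7.37, 7.79, 7.70 and 7.58 in LFD and 7.63, 7.33, 7.23, 5.46 and 7.89 in LFD MTX50. LFD MTX50 mouse 4 was far below the other mice on all 3 Bhmt probes, with 2.45 and 4.39 on the dimmer 2. The LFD difference of -0.50 ± 0.37 was not called (adjusted p = 0.31 by limma), and without that mouse it was -0.09 ± 0.24 (adjusted p = 0.786 by limma).

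In the HFD mice Bhmt was 7.46, 7.71, 7.47 and 7.47, and in HFD MTX50 mice 7.10, 7.70, 6.53, 7.27 and 7.96. The treated mice spread to both sides of the untreated ones, with a difference of -0.22 ± 0.37 (adjusted p = 0.719 by limma). The dimmer probes gave -0.76 ± 0.50 (adjusted p = 0.303 by limma) and -0.59 ± 0.43 (adjusted p = 0.361 by limma), so all 3 were negative and none passed. Between HFD and LFD the brightest Bhmt probe was at -0.08 and the others at 0.37 and 0.12, each within its standard error.

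The 2 Mtr probes moved in opposite directions in every comparison, so no direction is given for the gene. On the brighter probe the level was 3.05, 3.11, 2.86 and 2.87 in LFD, 2.83, 2.52, 2.19, 2.23 and 3.38 in LFD MTX50, 2.94, 2.80, 2.54 and 2.55 in HFD, and 2.73, 3.06, 3.60, 3.71 and 3.81 in HFD MTX50. HFD MTX50 mice 2 to 5 lay above all HFD mice. Mice 3, 4 and 5, with neutrophil sums of 4.52 to 53.1 against 1.23 in mouse 2, were the highest. In LFD MTX50, mice 2 and 4, with neutrophil sums of 5.88 and 6.23, were at 2.52 and 2.23. There the highest level was in mouse 5 (sum of 0.56) and the lowest in mouse 3 (sum of 0.52). The part of neutrophils in these levels was not tested. The difference within HFD was 0.68 ± 0.24 (adjusted p = 0.0724 by limma; exact permutation p = 0.0476), and within slide 5 it was 0.35. Leaving out mouse 5 of LFD MTX50 (0.68, adjusted p = 0.0409) or mouse 1 of HFD MTX50 (0.84, adjusted p = 0.027) brought it past the threshold.

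Within LFD the brighter Mtr probe differed by -0.34 ± 0.24 (adjusted p = 0.284 by limma), and the effects on the 2 diets differed by 1.02 ± 0.34 (adjusted p = 0.0352 by limma; exact permutation p = 0.0142). On the dimmer probe that difference of effects was -0.46 ± 0.18 (adjusted p = 0.0709 by limma), with -0.10 ± 0.13 in HFD and 0.35 ± 0.13 in LFD (adjusted p = 0.0508 by limma). With the probes averaged it was 0.28 (adjusted p = 0.211 by limma), and it was 0.76 (adjusted p = 0.124 by limma) without HFD MTX50 mice 4 and 5. The call on the brighter probe was also lost on leaving out any 1 of 10 of the 18 arrays: LFD mouse 1 or 2, LFD MTX50 mouse 2, 3 or 4, HFD mouse 3 or 4, or HFD MTX50 mouse 3, 4 or 5 (0.91 to 0.99, adjusted p = 0.0524 to 0.0756). The 3 genes whose brightest probe followed this one most closely over the 18 arrays were Adora2a (Pearson r = 0.99), Trem1 (0.97) and Prdm1 (0.97).

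**Figure D4:**
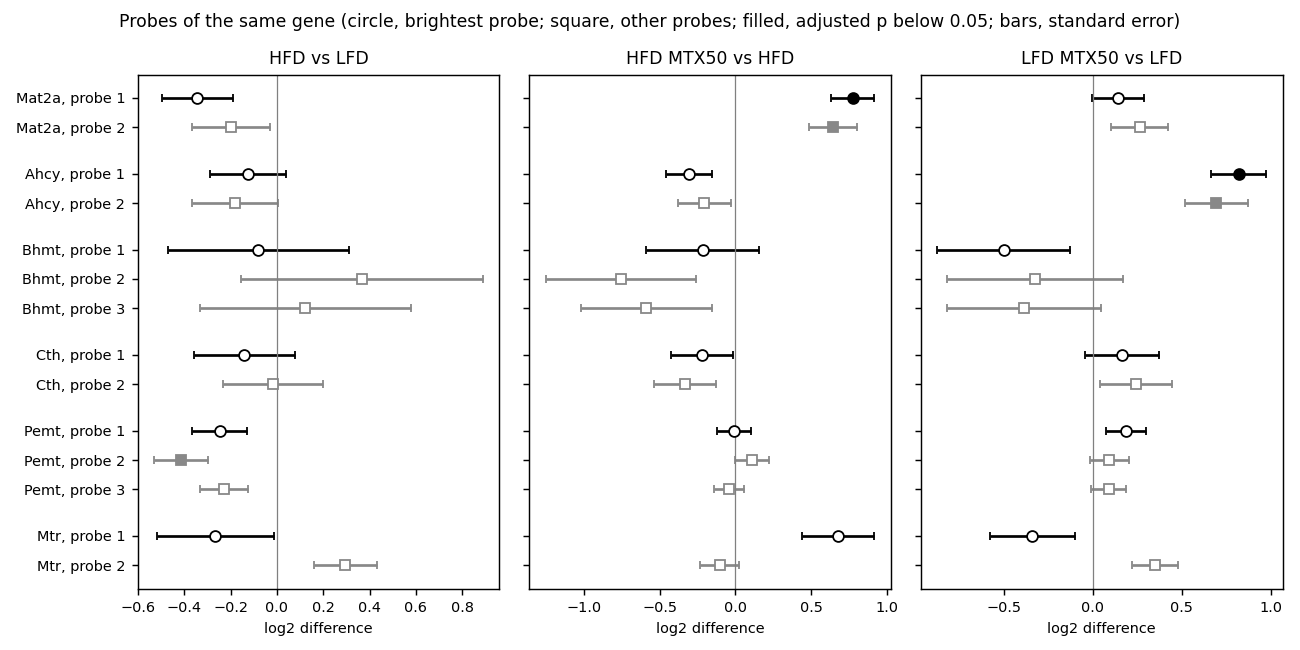
Difference in log2 level (x axis) for each probe of the 6 genes with more than 1 probe (y axis) in 3 comparisons. Circles are the brightest probe and squares the others, with standard errors as bars and filled symbols at an adjusted p below 0.05: both Mat2a probes in HFD MTX50 vs HFD and both Ahcy probes in LFD MTX50 vs LFD are filled, as is 1 Pemt probe in HFD vs LFD, and the 2 Mtr probes lie on opposite sides of 0.

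The transsulfuration genes Cbs and Cth did not pass in any comparison. Cbs encodes cystathionine beta-synthase, which commits homocysteine to cysteine. Its level was 5.40, 5.16, 5.39 and 5.54 in LFD and 5.34, 5.30, 5.34, 5.43 and 5.32 in LFD MTX50. The treated LFD mice were close to each other and inside the LFD range, with an SD of 0.05.

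In HFD mice Cbs was 5.36, 4.92, 4.89 and 5.23, and in HFD MTX50 mice 4.83, 4.92, 5.53, 5.45 and 5.59. Mice 1 and 2 of HFD MTX50, on slide 5, were near the lower HFD mice and mice 3 to 5, on slide 6, were above all of them. The difference of 0.16 ± 0.16 (adjusted p = 0.486 by limma) was -0.18 within slide 5. HFD and LFD differed by -0.27 ± 0.16 (adjusted p = 0.211 by limma).

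Cth encodes cystathionine gamma-lyase, which releases cysteine. Its level was 2.75, 2.80, 2.76 and 2.92 in LFD and 3.28, 2.54, 3.48, 2.38 and 3.18 in LFD MTX50. LFD MTX50 mice 1, 3 and 5 were above the LFD range and mice 2 and 4 under it, the same split of mice as for Mat1a. The means differed by 0.16 ± 0.21 (adjusted p = 0.564 by limma), and the dimmer probe placed mice 2 and 4 lowest as well, at 2.10 and 1.98 against 2.67 to 3.01 in the other 3. In HFD MTX50 the level was 2.90, 2.31, 2.31, 2.24 and 2.49 against 2.95, 2.41, 2.48 and 2.84 in HFD, a difference of -0.22 ± 0.21 (adjusted p = 0.482 by limma).

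Nnmt encodes nicotinamide N-methyltransferase, which spends SAM on nicotinamide. It varied more between mice than the other genes in 3 of the 4 groups, with an SD of 0.45 in LFD, 0.51 in HFD and 1.09 in HFD MTX50. In LFD MTX50 its SD of 0.82 was second to that of Bhmt (0.96), which rests on mouse 4. The Nnmt level was 0.09, 0.91, 0.55 and 1.11 in LFD and 2.36, 0.91, 1.77, 0.90 and 2.70 in LFD MTX50. Mice 1, 3 and 5 were again above the LFD range and mice 2 and 4 within it.

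Under methotrexate Nnmt differed by 1.06 ± 0.49 in LFD (adjusted p = 0.108 by limma; exact permutation p = 0.0794) and by 0.64 ± 0.49 in HFD (adjusted p = 0.384 by limma). In HFD the level was 1.45, 0.78, 0.78 and 1.79, and in HFD MTX50 1.55, 2.34, 0.72, 1.12 and 3.45. HFD MTX50 mouse 5, with the highest neutrophil and erythroid sums, had the highest Nnmt level of the 18 mice. Mouse 4 of that group, with the next highest neutrophil sum (11.6), was at 1.12. Mouse 2, with a neutrophil sum of 1.23, was at 2.34. In LFD MTX50, mice 2 and 4 had the highest neutrophil sums and the lowest Nnmt levels. The part of these markers in the Nnmt levels was not tested.

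Over the 10 genes the median difference was -0.19 for the diet, 0.04 for methotrexate on HFD and 0.17 for methotrexate on LFD, beside medians over all 19597 genes of 0.08, -0.04 and 0.10. For the treatment effect on HFD minus that on LFD it was -0.29, beside -0.11. Over 10 genes these medians are a description only. Among all genes, those whose brightest probe followed Mat2a most closely over the 18 arrays were Dhrs13 (Pearson r = 0.94), Cdc25a (0.88) and Marveld2 (0.88). For Ahcy they were 4930417O22Rik (0.91), Znrd2 (0.90) and Stard10 (0.88), for Mat1a Slc2a6 (0.93), Spock2 (0.93) and Glt1d1 (0.92), and for Gnmt Aldh1l1 (0.88), a folate enzyme, Gchfr (0.88) and Hmgn5 (0.87). The points share diet, treatment and slide, and the values are descriptive.

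The neighbouring pathways were read through 8 lists of 48 genes, of which 47 were tested. Under methotrexate on HFD 8 of the 47 were lower and none higher (6.13% of all genes were lower and 4.83% higher). On LFD 11 were lower and 3 higher, beside 10.5% and 17.6% of all genes. Between the diets 5 were lower in HFD and none higher, beside 10.4% and 18% of all genes. The treatment effect was higher on HFD for 2 and lower for none, beside 8.66% and 18.1%. The medians over the lists were -0.16, -0.24, -0.07 and 0.02 in that order, and that for the diet was 0.01 with quantile normalisation. Quantile and median scaling kept more of the 47 lower than higher in these 3 comparisons of groups, but the counts changed. On HFD, 5 were lower without HFD MTX50 mouse 5 and 5 with median scaling, and on LFD, 8 were lower and 1 higher with quantile normalisation and none was called with slide as a random block.

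Of the 6 other small molecule methyltransferases, which like Gnmt and Nnmt use SAM, 3 were lower in HFD MTX50 than in HFD. They were Inmt, an indolethylamine methyltransferase (-2.05 ± 0.60, adjusted p = 0.0399 by limma), Hnmt, which methylates histamine (-0.63 ± 0.18, adjusted p = 0.039), and Tpmt, which methylates thiopurines (-0.58 ± 0.15, adjusted p = 0.0265). Inmt ranged from 0.49 to 4.44 in HFD MTX50 and from 3.98 to 4.70 in HFD, so those groups overlapped, whereas the Hnmt and Tpmt groups did not. The Inmt call was lost without HFD MTX50 mouse 5 (-1.87, adjusted p = 0.0884), and with slide as a fixed block the adjusted p was 0.126 for Hnmt and 0.0723 for Tpmt. In LFD MTX50, Hnmt was lower (-0.71 ± 0.18, adjusted p = 0.0123 by limma), and As3mt, which methylates arsenic, was higher (0.74 ± 0.27, adjusted p = 0.0494). The As3mt call was lost with quantile normalisation (0.77, adjusted p = 0.0555) and with median scaling (0.64, adjusted p = 0.0833). With slide as a random block neither LFD call was kept (Hnmt adjusted p = 0.133, As3mt adjusted p = 0.194). None of the 6 was called in HFD vs LFD.

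In the list on cysteine, taurine, glutathione and sulfide, 10 genes were tested. Ethe1, a mitochondrial sulfur dioxygenase, was lower under methotrexate on both diets, at -0.67 ± 0.21 in HFD (adjusted p = 0.0444 by limma) and -0.80 ± 0.21 in LFD (adjusted p = 0.0118). The Ethe1 call in HFD was lost without HFD MTX50 mouse 5 (-0.67, adjusted p = 0.0803), with slide as a fixed block (-0.50, adjusted p = 0.305) or a random one (-0.62, adjusted p = 0.0846), with median scaling (-0.63, adjusted p = 0.0526) and with the replicate block (-0.62, adjusted p = 0.119), and the call in LFD with slide as a random block (-0.85, adjusted p = 0.101). Suox, sulfite oxidase, was lower in HFD (-0.45 ± 0.13, adjusted p = 0.041 by limma). In LFD, Gclc, the catalytic subunit of the enzyme that starts glutathione synthesis, was lower (-1.17 ± 0.38, adjusted p = 0.0324 by limma) and Gss, glutathione synthetase, was higher (0.91 ± 0.31, adjusted p = 0.0395). Neither LFD call was kept with quantile normalisation (Gclc -1.04, adjusted p = 0.0735, and Gss 0.88, adjusted p = 0.0544). Slide as a random block also lost both (adjusted p = 0.127 and 0.232), as did normexp. The Gss call was lost with median scaling too (0.81, adjusted p = 0.0634). Cdo1, which oxidises cysteine on the way to taurine, was lower in HFD than in LFD (-0.45 ± 0.14, adjusted p = 0.0262 by limma). The Cdo1 call was lost with quantile normalisation (-0.24, adjusted p = 0.199), with slide as a random block (-0.45, adjusted p = 0.142) and with normexp.

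Of the 8 methionine salvage and polyamine genes tested, Sms, spermine synthase, was lower in LFD MTX50 than in LFD (-1.08 ± 0.27, adjusted p = 0.01 by limma) and lower in HFD than in LFD (-0.81 ± 0.28, adjusted p = 0.0421). Its treatment effect was 1.63 ± 0.38 higher on HFD (adjusted p = 0.00878 by limma). The Sms call for the diet was lost with quantile normalisation (-0.59, adjusted p = 0.104) and with normexp. It was also lost with slide as a random block (-0.74, adjusted p = 0.17) and with the replicate block (-0.81, adjusted p = 0.0673). Apip and Mtap, both of the salvage route, were lower in LFD MTX50 (-0.61 ± 0.17, adjusted p = 0.0155, and -0.36 ± 0.11, adjusted p = 0.0282, by limma), and the Mtap probe was at 0.83 with normexp. None of the 5 other genes of remethylation was called in any comparison.

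Ahcyl1, a relative of Ahcy, was lower in HFD than in LFD (-0.53 ± 0.10, adjusted p = 0.00359 by limma) and in LFD MTX50 than in LFD (-0.28 ± 0.09, adjusted p = 0.0313), and its treatment effect was 0.41 ± 0.12 higher on HFD (adjusted p = 0.0242). One LFD array had no Ahcyl1 value because its spot was an outlier, so these rest on 3 LFD mice. In LFD MTX50 the Ahcyl1 call was lost with quantile normalisation (-0.24, adjusted p = 0.0797 by limma). With slide as a random block it was also lost (-0.27, adjusted p = 0.18). The difference of effects lost its call with both (adjusted p = 0.0529 and 0.0924). Without HFD MTX50 mice 4 and 5 it was 0.42 and not called (adjusted p = 0.0523). Every Ahcyl1 call was lost with normexp. In phosphatidylcholine synthesis from choline, Chpt1, which makes phosphatidylcholine in the last step, was lower under methotrexate on both diets (-0.71 ± 0.14, adjusted p = 0.00904, in HFD and -0.58 ± 0.14, adjusted p = 0.00756, in LFD, by limma), with no overlap of the groups on either diet. With slide as a fixed block the adjusted p in HFD was 0.0592. Chka, choline kinase alpha, was lower in HFD than in LFD (-1.44 ± 0.44, adjusted p = 0.0251 by limma). The Chka call was lost with slide as a random block (-1.55, adjusted p = 0.113) and with normexp. Aldh7a1, of betaine synthesis, was lower in LFD MTX50 (-0.53 ± 0.15, adjusted p = 0.0186 by limma).

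Among the 5 nicotinamide partners of Nnmt, Aox1, an oxidase of methylated nicotinamide, and Nmnat1, of NAD synthesis, were lower in HFD MTX50 than in HFD (-1.02 ± 0.28, adjusted p = 0.0293, and -0.57 ± 0.16, adjusted p = 0.0385, by limma), both with no overlap, and the Nmnat1 probe was at 0.26 with normexp. Without HFD MTX50 mouse 5 neither was called (Aox1 -0.89, adjusted p = 0.0689; Nmnat1 -0.58, adjusted p = 0.062). Naprt, which feeds nicotinic acid into NAD, was lower in HFD than in LFD (-0.39 ± 0.13, adjusted p = 0.0383 by limma). The Naprt call was lost with quantile normalisation (-0.23, adjusted p = 0.157) and with normexp. It was also lost with slide as a random block (-0.36, adjusted p = 0.163) and with the replicate block (-0.39, adjusted p = 0.0553).

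**Figure D5:**
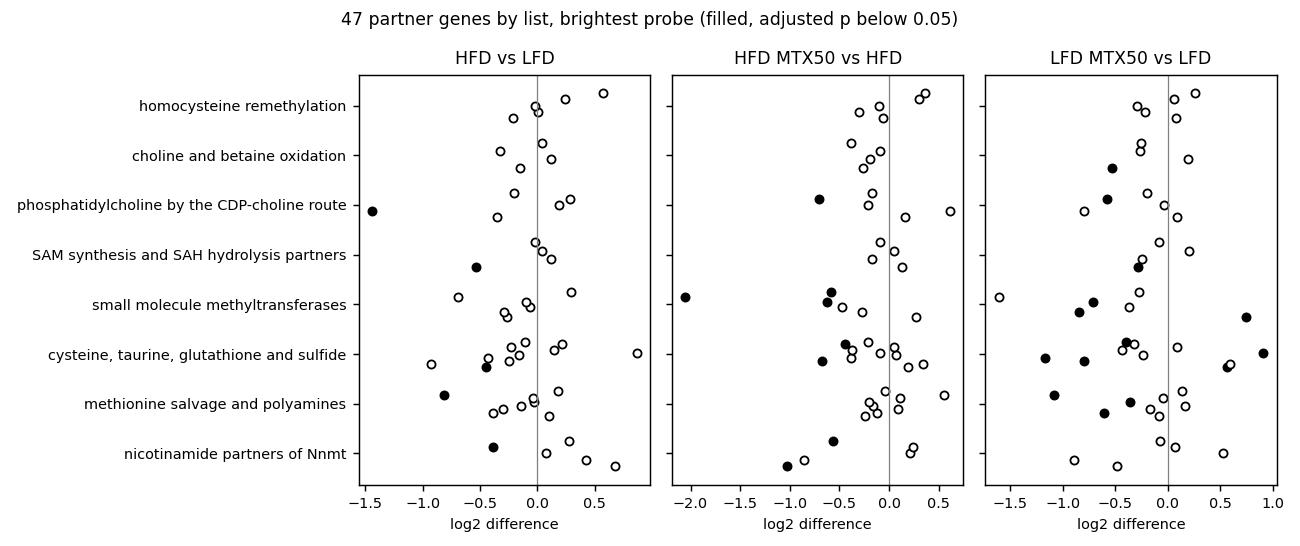
Difference in log2 level (x axis) of the 47 tested partner genes, grouped by list (y axis), in 3 comparisons. Each circle is a gene on its brightest probe and filled circles have an adjusted p below 0.05: 5, 8 and 14 genes in turn, of which 3, all in LFD MTX50 vs LFD, are on the higher side.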

How the data were processed

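Total liver RNA of 18 mice was labelled with 1 dye and hybridised to Agilent 4×44K mouse arrays by the authors, who deposited the scanner output of Agilent Feature Extraction 10.7.3.1 as linear signal intensity per spot, background-corrected but not scaled between arrays. The genome build of the probe annotation was not given in the sources used here. Genes were named through the probes' accessions and RefSeq for GRCm38.p6, which named 28025 of 39429 distinct probes. The processed intensity as deposited was divided by the 75th percentile of each array over spots that are not controls and put on the log2 scale, outlier spots were set to missing, and repeated spots were averaged. Probes well above background on at least 4 of 18 arrays were kept (35738). The 75th percentile was 1203 to 2263 and 84.2 to 90.8% of spots were well above background, and the number of arrays limits the precision. The 4 groups were fitted in 1 model in limma 3.58.1 (R 4.3.3, lmFit and eBayes) and p-values were adjusted by Benjamini-Hochberg over the kept probes, and the model was tested on simulated data. Exact permutation tests between groups were 2-sided (scipy 1.17.1). For the difference of treatment effects, all exchanges of treatment labels within each diet were listed and the smaller tail was doubled. The methods name GeneSpring, 2-fold lists and p up to 0.015 with no model, so these were alternatives, as were scaling, filters, slide, replicate number and leaving out each array. The normexp alternative used the median spot and background signals, with an offset of 50, and the deposited value table of the series holds background-subtracted intensity. Mice are separate animals by the methods. Replicate numbers are shared between groups. Arrays that correlated best with their own number were 4 of 8 in HFD vs LFD, 0 of 9 in HFD MTX50 vs HFD and 4 of 9 in LFD MTX50 vs LFD. Same-numbered arrays thus did not deviate together in every comparison. The numbers were not used as pairs in the main model. All 10 genes were named, and from each list at most 3 called genes per comparison, those with the largest change. The genes and lists were chosen with earlier results of these data known, and leaving out HFD MTX50 mice 4 and 5, and every alternative for the partner lists, was added after seeing the data. Some genes of the partner and marker lists are counted but their own values are not reported here.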

Additional observations from a re-analysis of the deposited data

Results flagged for a closer look

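In 3 of 40 groups of mice 1 value stood far from the others relative to the range of its group, and chance gives such a gap in about 1 of 20 groups. Bhmt in LFD MTX50 had a gap of 0.728 of the range under mouse 4 (5.46). Bhmt in HFD had a gap of 0.952 of the range above mice 1, 3 and 4, to mouse 2 (7.71), but this group spans only 7.46 to 7.71. Pemt in LFD MTX50 had a gap of 0.89 of the range above mouse 5 (3.95). The treatment effect on HFD minus that on LFD passed the test of the difference itself for 4 genes by limma: Mat2a (0.63), Ahcy (-1.13), Gnmt (-0.66) and the brighter Mtr probe (1.02), of which the last was not shown by the dimmer probe of the gene.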

How the results depend on the processing

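No called change of the 10 genes reversed. Of 1300 single-gene values under alternatives, 1236 kept their side of the threshold (33 of these uncalled with a change of sign), 40 lost it and 24 gained it. With the main settings, 0 of the 10 genes were called for the diet, 1 for methotrexate on HFD, 2 for methotrexate on LFD and 4 in the difference of treatment effects. HFD vs LFD gave 2 with median scaling, 1 with only the groups compared, 3 with the methods' t-test at p up to 0.05 and 1 with the mean of probes. HFD MTX50 vs HFD gave 3 at an unadjusted p up to 0.015, 0 with a 2-fold limit, 0 with normexp, 2 with quantile normalisation, 2 with probes above background on all arrays, 0 with only the groups compared, 3 with the t-test at p up to 0.05, 0 with the t-test adjusted, and 2 without HFD MTX50 mice 4 and 5. LFD MTX50 vs LFD gave 0 with the 2-fold limit, 0 with normexp and 0 with slide as a random block. The difference gave 2 with the 2-fold limit, 0 with normexp, 1 with the random block and 2 with the mean of probes. Leaving out 1 array gave 0 for the diet, 1 to 2 for methotrexate on HFD, 2 on LFD and 2 to 5 in the difference. For the 47 partner genes (5, 8, 14 and 2 called), normexp gave 0, 0, 2 and 0 and the random block 1, 6, 0 and 1; HFD MTX50 vs HFD gave 5 with median scaling, 4 with the replicate block and 5 without HFD MTX50 mouse 5; LFD MTX50 vs LFD gave 9 with quantile normalisation; and leaving out mice 4 and 5 gave 8 in HFD vs LFD and 1 in the difference. Same-numbered arrays had correlations of deviations from -0.313 to 0.254, and 4 of 8, 0 of 9 and 4 of 9 arrays correlated best with their own number. The replicate block left the counts for the 10 genes at 0, 1, 2 and 4, and moved the calls over all probes in HFD MTX50 vs HFD from 4010 to 1976. Over all probes the median difference for the diet and for methotrexate on HFD and on LFD was 0.12, -0.06 and 0.16, against 0.02, -0.02 and 0.03 with quantile normalisation and 0.54, 0.52 and 0.67 with normexp, which called 2, 0 and 512 probes against 10225, 4010 and 10482. The cause was not tested. All 18 probes were well above background on every array, and no ratio of signal to background was computed.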
